A study of Mus musculus with 12 samples.

Results

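The liver carboxylesterases described here are the 10 genes Ces1c, Ces1d, Ces1e, Ces1f, Ces1g, Ces2a, Ces2e, Ces3a, Ces3b and Ces4a. They were taken by symbol from a table of 24475 genes that gives each gene's expression as RPKM (reads per kilobase of transcript, scaled to the library's reads), and all 10 were found. The list was chosen by their WT and Gcg KO values in this same table, which were known when it was drawn up. The table holds 19 carboxylesterase genes, so the other 9 serve as the nearest comparison. The libraries were polyadenylated, strand-specific RNA-seq of whole liver from fed mice, 6 of wild-type genotype (WT, numbered 1 to 6) and 6 of genotype Gcg KO (numbered 7 to 12), which lack the gene of the glucagon precursor. The labels name no strain, age or sex and do not describe the knockout allele. They do not state whether each library is a different mouse, so the p-values measure the spread between these libraries, which may be technical. Gcg is listed at 0 RPKM in every library, WT included, so the deleted gene gave no check of the genotype labels in liver.

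Carboxylesterases are serine hydrolases that cut ester and amide bonds of drugs and of neutral lipids. In hepatocytes most of them sit in the lumen of the endoplasmic reticulum, where some release fatty acids from stored triacylglycerol for export in very low density lipoprotein (VLDL). Rodents carry many more copies of these genes than humans, arranged in arrays of neighbours that arose by duplication. Glucagon acts on hepatocytes through its receptor and cAMP, and the study asked what its loss does to gene expression across the zones of the liver lobule.

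All the carboxylesterase genes lie on chromosome 8 (GRCm38) in a pair of arrays separated by 11198 kb. The first array runs from 93020214 to 93535879 on the minus strand and holds Ces1a to Ces1h and Ces5a, 5 of them members. The second runs from 104734003 to 105150109 on the plus strand and holds the Ces2 genes, Ces3a, Ces3b and Ces4a, also with 5 members. Ces1d spans 93166072 to 93197804 and Ces4a spans 105131800 to 105150109, each with 14 exons. Over the 1579 coding positions present in all 10 members, 389 (24.6%) carry the same base in every member. The most alike stretch of 60 coding bases is printed below for each member to show how near these copies are to each other. Capitals mark the 33 positions at which all 10 agree. The sequences were read from GENCODE M21 transcripts.
Ces1c: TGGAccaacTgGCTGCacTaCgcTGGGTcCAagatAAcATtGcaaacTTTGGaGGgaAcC
Ces1d: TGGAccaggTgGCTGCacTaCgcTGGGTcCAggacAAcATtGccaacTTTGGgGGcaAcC
Ces1e: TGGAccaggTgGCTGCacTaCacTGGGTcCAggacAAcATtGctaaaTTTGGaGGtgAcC
Ces1f: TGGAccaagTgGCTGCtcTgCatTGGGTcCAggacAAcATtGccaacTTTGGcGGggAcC
Ces1g: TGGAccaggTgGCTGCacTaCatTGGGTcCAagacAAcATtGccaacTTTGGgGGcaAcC
Ces2a: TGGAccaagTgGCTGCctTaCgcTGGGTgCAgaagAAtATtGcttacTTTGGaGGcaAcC
Ces2e: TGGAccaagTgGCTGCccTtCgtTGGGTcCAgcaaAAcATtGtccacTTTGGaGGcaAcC
Ces3a: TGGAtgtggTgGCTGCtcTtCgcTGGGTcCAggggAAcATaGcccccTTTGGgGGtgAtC
Ces3b: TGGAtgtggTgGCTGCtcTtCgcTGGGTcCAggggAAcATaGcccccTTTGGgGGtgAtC
Ces4a: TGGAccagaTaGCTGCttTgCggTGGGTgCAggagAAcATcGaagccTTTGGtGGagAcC
Ces3a and Ces3b are identical over this stretch, Ces1g differs from Ces1d at 3 positions, and Ces4a differs from Ces1d at 16. Across the whole coding sequence, Ces3a and Ces3b were the closest pair of members with 95.3% identity and an identical run of 194 bases. Among the 45 pairs of members identity ranged down to 51.8%. Ces1d and Ces1g shared 81.5%, and Ces2a and Ces2e 83.2%.

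Such copies can share reads, so exact matches between transcripts were counted. Ces4a shared no stretch of 50 bases with a transcript of any other gene. Of the 50-base windows of Ces1d, 1.28% were found in another gene, and 0% at 75 bases. Ces1f and Ces1g were nearly as distinct, with 30 of 1877 and 39 of 2339 windows of 50 bases, followed by Ces1e with 3.21% and Ces2e with 3.36%. Ces1c shared 17.0%, mostly with Ces1b, and Ces2a 22.2%, mostly with the transcribed pseudogene Gm7208, which has no row in the RPKM table. Ces3a shared 30.9% and Ces3b 26.1%, each with the other alone. The values of Ces1c, Ces2a, Ces3a and Ces3b are therefore uncertain in how reads were divided, since no source used here states the read length or the treatment of reads with several matches.

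**Figure D1:**
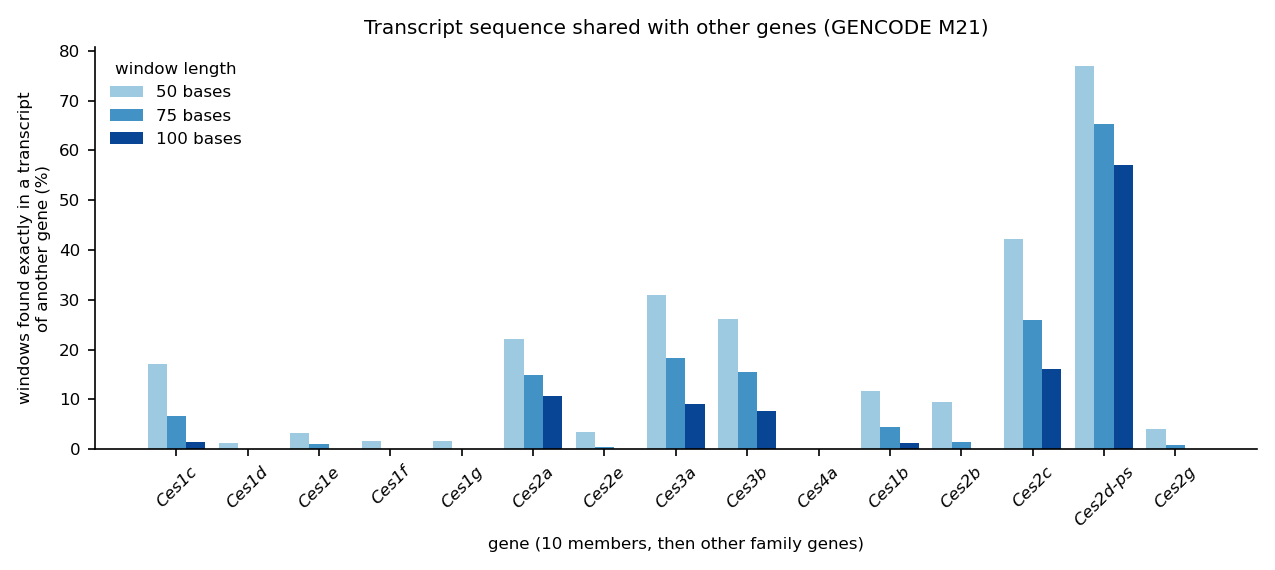
Share (%) of each gene's transcript windows of 50, 75 and 100 bases that occur exactly in a transcript of another gene, for the 10 members and 5 other family genes. Ces4a has none, Ces1d has 1.28% at 50 bases, Ces3a has 30.9%, and the pseudogene Ces2d-ps has the highest bar at 76.9%.

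The depth was estimated from low RPKM values of genes with a single annotated transcript, each multiplied by the transcript's length. The most frequent product within a range set beforehand was taken as a single read. That gave 10200000 to 14900000 reads per library. The range limits what the estimate can be, and the read numbers of a gene also assume a single transcript length. On that estimate Ces4a rested on 35 to 78 reads per library in WT and 143 to 390 in Gcg KO, and Ces1d on 4298 to 15227. WT 6, Gcg KO 10 and Gcg KO 12 were highest on the first principal component of the tested genes (27.9% of the variance), at 17.0, 28.3 and 28.8. The other 9 libraries ran from -21.9 (WT 4) and -21.2 (WT 5) up to 6.99 (Gcg KO 9). The 3 are therefore 1 end of a spread and not shown to be outliers. Values without these 3 libraries are given beside the results below.

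Carboxylesterases were among the abundant liver transcripts, and in Gcg KO livers Ces4a and Ces1d were higher. The 10 members together held 0.516% to 0.692% of the summed RPKM of a library. Their sum was 3388 ± 248 RPKM in WT and 3719 ± 352 in Gcg KO (SD, n = 6 each), and the groups overlapped. Ces3a and Ces1c ranked 69 and 74 among all genes by their WT mean and held 55.3% to 68.2% of the members' sum. Ces4a stood at the other end, at rank 9243.

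Every member passed the filter of a mean of 0.5 RPKM over the 12 libraries. In limma on log2(RPKM + 0.5) with Benjamini-Hochberg adjustment over 11347 genes, 2 of the 10 members passed 0.05 upwards and 0 downwards. Of all tested genes 3.87% passed, 1.95% upwards and 1.92% downwards. The members were chosen with these differences known, so this count and the values below describe the members and give no independent support. The fold change was positive for 8 members and negative for 2, beside 6161 positive and 5186 negative over all tested genes. The median log2 fold change was 0.31 over the members and 0.014 over all tested genes. Without WT 6, Gcg KO 10 and Gcg KO 12 the count was again 2 higher and 0 lower, but Ces2e took the place of Ces1d. Without adjustment 4 of the 10 had a p under 0.05, as did 1783 of the 11347 tested genes.

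**Figure D2:**
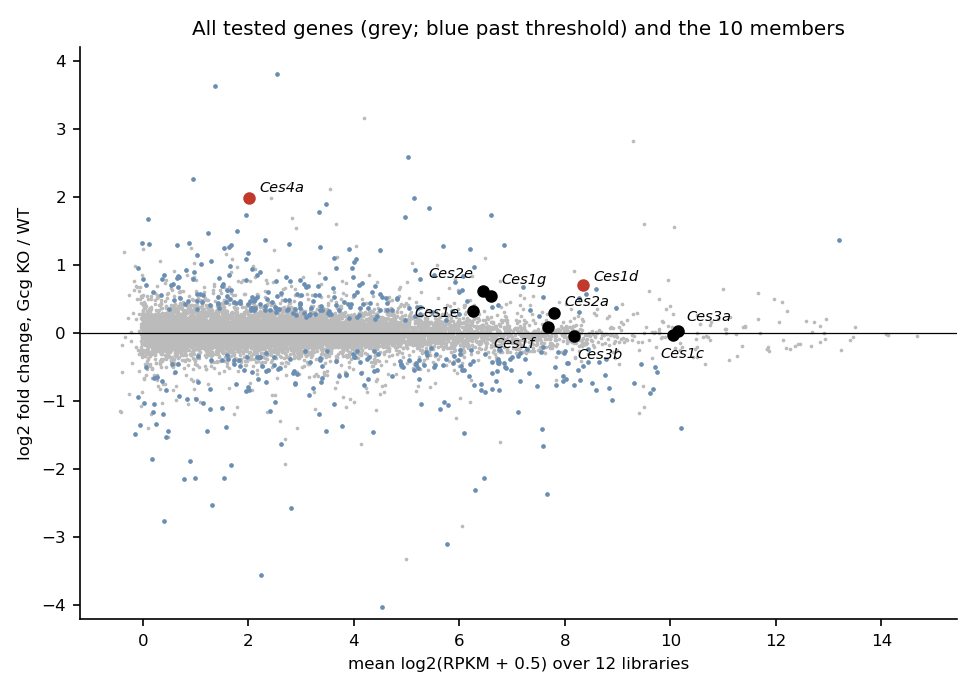
Log2 fold change (Gcg KO over WT) of all 11347 tested genes against their mean log2(RPKM + 0.5), 1 grey point per gene, blue past the threshold, with the 10 members labelled. Ces4a at 1.98 and Ces1d at 0.70 are red, for past the threshold; Ces1c and Ces3a lie near 0 at high expression.

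**Figure D3:**
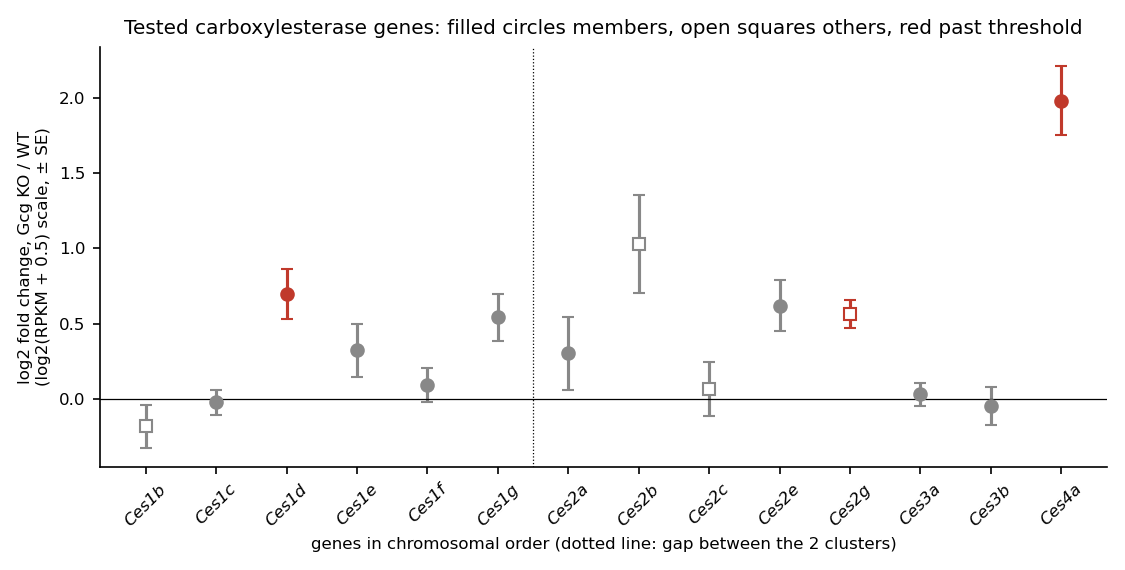
Log2 fold change from WT to Gcg KO, with bars of 1 standard error, of the 14 tested carboxylesterase genes in chromosomal order; circles are members, squares other family genes, red passed the threshold. Ces1d (0.70), Ces2g (0.56) and Ces4a (1.98) are red.

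Ces1d, also called triacylglycerol hydrolase, takes part in mobilising stored triacylglycerol for VLDL secretion. It lay at 185 RPKM in the lowest WT library, 265 at the median and 324 in the highest. In Gcg KO it lay at 265 RPKM in the lowest, 431 at the median and 558 in the highest. Only Gcg KO 11 fell within the WT range, and the other 5 Gcg KO libraries were above every WT library. The mean rose from 259 ± 46.8 to 426 ± 99.4 RPKM (SD, n = 6 each). On the log2 scale it rose by 0.70 ± 0.17 (SE, limma adjusted p = 0.0336). The size of the difference held and the call did not: without WT 6, Gcg KO 10 and Gcg KO 12 the log2 fold change was 0.60 (adjusted p = 0.0928). The call was lost in 12 of 21 alternatives, among them leaving out any 1 of WT 1, WT 2, WT 3, WT 4, WT 5, Gcg KO 7, Gcg KO 8, Gcg KO 9, Gcg KO 10 or Gcg KO 12, where the adjusted p was 0.0549 to 0.0747.

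Ces1f, a second triacylglycerol hydrolase of the same array, showed no such shift. Its WT libraries ran from 173 through a median of 199 to 236 RPKM, and its Gcg KO libraries from 169 through 207 to 258. The groups covered nearly the same range, and the log2 fold change was 0.092 ± 0.11 (SE, adjusted p = 0.774), or 0.016 without WT 6, Gcg KO 10 and Gcg KO 12. The ratio of Ces1d to Ces1f within a library was 1.06 to 1.43 in WT and 1.57 to 2.22 in Gcg KO. The groups did not overlap on this ratio. They did overlap on the ratio of Ces1d to Ces1c, 0.183 to 0.312 in WT and 0.244 to 0.482 in Gcg KO. They also overlapped on that of Ces1d to Ces1e, 3.06 to 4.51 in WT and 4.03 to 5.89 in Gcg KO. These ratios restate the difference of Ces1d, known when the members were chosen, and give no separate support. How often ratios of other genes separate the groups was not computed.

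Ces1g, whose loss in mice is known to raise liver and blood lipids, was higher in most Gcg KO libraries without passing the threshold. It had 57.4, 88.5 and 93.5 RPKM as lowest, median and highest WT values, and 91.2, 115 and 151 RPKM in Gcg KO. The 5 WT libraries other than WT 6 lay below all 6 Gcg KO libraries. The log2 fold change was 0.54 ± 0.16 (SE, adjusted p = 0.0756). Under quantile normalization it was 0.59 and passed (adjusted p = 0.0464), and without WT 6, Gcg KO 10 and Gcg KO 12 it was 0.43 (adjusted p = 0.212).

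Ces2a, a Ces2 enzyme able to cut triacylglycerol and diacylglycerol, varied more between libraries than between genotypes. WT values ran from 136 through 207 to 280 RPKM, and Gcg KO values from 125 through 261 to 359. Its lowest value of all was in Gcg KO 11 and its highest in Gcg KO 10, so 1 genotype held both ends. The log2 fold change was 0.30 ± 0.24 (SE, adjusted p = 0.624), and 0.18 without WT 6, Gcg KO 10 and Gcg KO 12.

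Ces2e, another Ces2 enzyme of liver and gut, had 47.3, 66.9 and 111 RPKM as lowest, median and highest in WT. In Gcg KO these were 85.9, 106 and 133 RPKM. WT 6 was the only WT library inside the Gcg KO range. The log2 fold change was 0.62 ± 0.17 (SE) and missed the threshold (adjusted p = 0.0650). Without WT 6 it was 0.75 and passed (adjusted p = 0.0089), and without WT 6, Gcg KO 10 and Gcg KO 12 it was 0.63 (adjusted p = 0.0406). In that smaller set the means were 64.3 ± 11.9 RPKM in 5 WT libraries and 98.5 ± 10.3 in 4 Gcg KO libraries.

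Ces1c, the main carboxylesterase secreted into rodent plasma, and Ces1e, called egasyn because it holds beta-glucuronidase in the endoplasmic reticulum, stood far apart in abundance. Ces1c had 990, 1055 and 1199 RPKM as lowest, median and highest in WT, and 905, 1040 and 1209 in Gcg KO. The Gcg KO range enclosed the WT range, and the log2 fold change was -0.024 ± 0.085 (SE, adjusted p = 0.944). The highest Gcg KO values of Ces1c were in Gcg KO 10 and Gcg KO 12, and without them and WT 6 its log2 fold change was -0.13 (adjusted p = 0.552). Ces1e had 56.7, 61.6 and 91.1 RPKM in WT and 65.7, 74.9 and 132 in Gcg KO. Most of its excess lay in Gcg KO 10 (132 RPKM) and Gcg KO 12 (106 RPKM). The log2 fold change of Ces1e was 0.32 ± 0.17 (SE, adjusted p = 0.405), and 0.14 without WT 6, Gcg KO 10 and Gcg KO 12. Gusb, which encodes beta-glucuronidase, had a WT mean of 10.9 RPKM and a Gcg KO mean of 10.03 (adjusted p = 0.607).

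Ces3a and Ces3b, the pair that shares most sequence, gave the smallest differences beside Ces1c. Ces3a had 980, 1125 and 1254 RPKM as lowest, median and highest in WT and 1074, 1147 and 1267 in Gcg KO, a log2 fold change of 0.030 ± 0.076 (SE, adjusted p = 0.915), or 0.068 without WT 6, Gcg KO 10 and Gcg KO 12. Ces3b had 229, 298 and 352 RPKM in WT and 229, 271 and 350 in Gcg KO, a log2 fold change of -0.046 ± 0.13 (SE, adjusted p = 0.924), or -0.098 without those 3 libraries. The sum of the pair was 1425 ± 151 RPKM in WT and 1438 ± 117 in Gcg KO (SD, n = 6 each).

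Ces4a is the least studied of these enzymes, and it was by far the least abundant member. In WT it lay between 1.18 and 2.20 RPKM with a median of 1.51. In Gcg KO it lay between 4.44 and 14.1 RPKM with a median of 8.32. Every Gcg KO library was above every WT library, a separation that 3.09% of all tested genes showed, 1.6% in that direction. Gcg KO 8 was the highest and Gcg KO 7 and Gcg KO 10 (4.81 RPKM) the lowest of their group. The mean rose from 1.56 ± 0.398 to 8.07 ± 3.48 RPKM (SD, n = 6 each), 5.16 times as high as a ratio of means and 3.94-fold on the log2(RPKM + 0.5) scale. The log2 fold change was 1.98 ± 0.23 (SE, limma adjusted p = 2.2e-04), rank 43 by p among all tested genes. It passed in all 21 alternatives, with log2 fold changes of 1.75 to 2.22 and adjusted p of 1.6e-04 to 0.0020. Without WT 6, Gcg KO 10 and Gcg KO 12 the means were 1.54 ± 0.441 and 8.83 ± 3.98 RPKM.

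**Figure D4:**
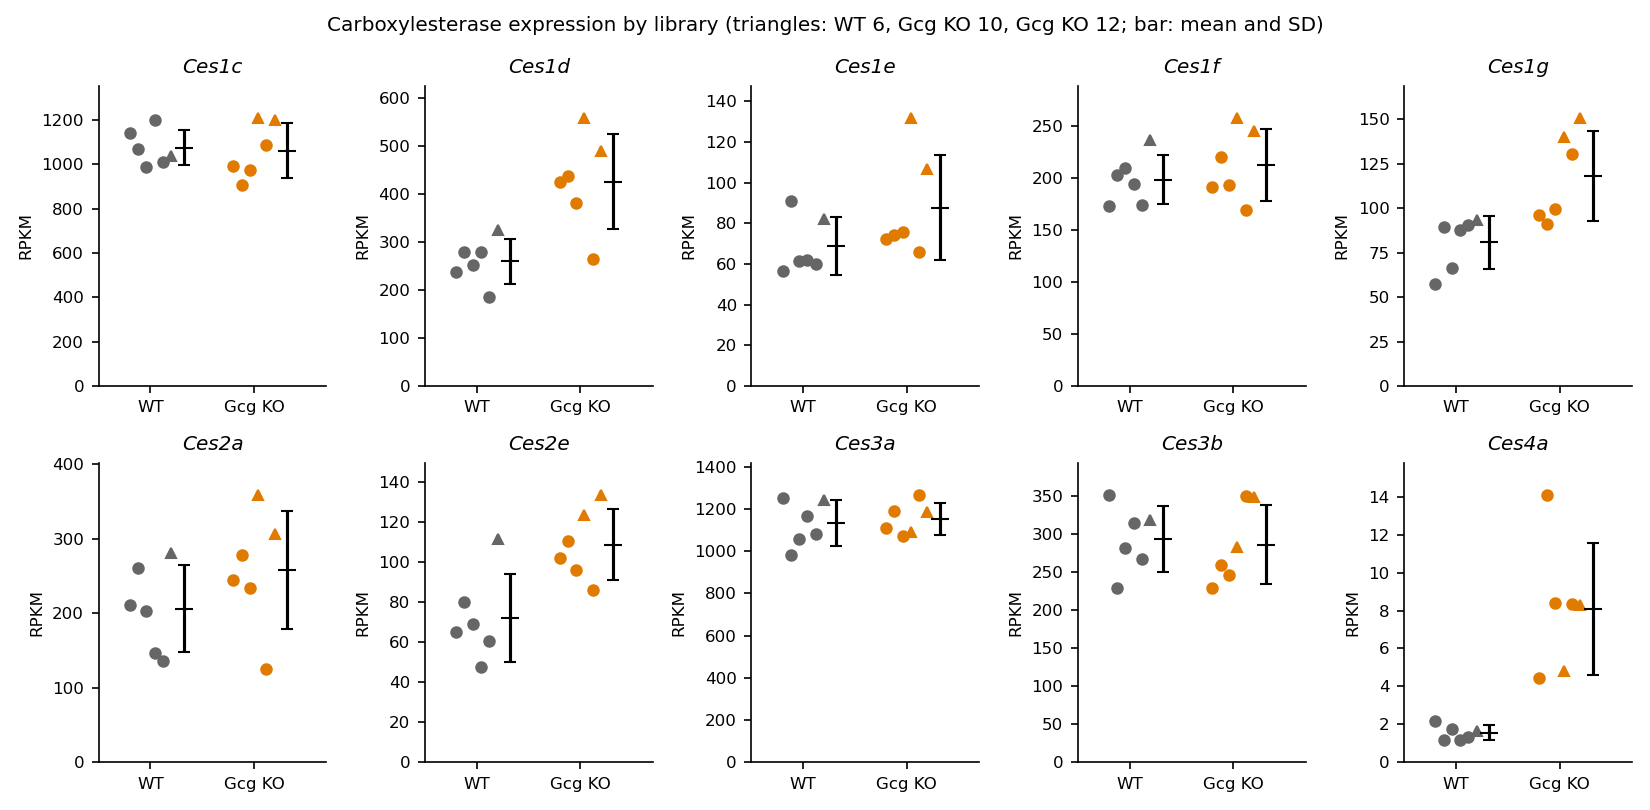
RPKM of each member, 1 point per library (grey WT, orange Gcg KO), on axes from 0; black bars give mean and SD, and triangles are WT 6, Gcg KO 10 and Gcg KO 12. The groups separate fully for Ces4a (up to 2.20 against 4.44 and above), all but Gcg KO 11 separate for Ces1d, and Ces1c, Ces3a and Ces3b overlap.

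The genes whose profile over the 12 libraries was nearest to that of Ces4a were Cidec, LOC100048884, Nxpe2, Aatk and Mup20, out of 9801 genes compared. Likeness was the root mean square difference of log2 values after each gene's mean was subtracted, 0.49 for Cidec and 0.57 for Mup20 against a median of 1.08. A rise in Gcg KO comes with being picked for likeness to Ces4a, so the values that follow are no separate support. Cidec, a lipid droplet protein, had means of 0.518 (WT) and 2.19 RPKM (Gcg KO), with an adjusted p of 0.0125. LOC100048884 had 5.61 and 22.7 RPKM (limma adjusted p = 0.0386). Nxpe2 had 6.24 and 15.7 RPKM (adjusted p = 1.1e-04), Aatk, a kinase, 1.04 and 2.61 RPKM (adjusted p = 0.0017), and Mup20, a major urinary protein of a multigene family, 5928 and 15550 RPKM (adjusted p = 8.1e-04). For Ces1c, the member with the largest p, the nearest were H2-T23, Atp5g2, Ntan1, Rpl9 and Ogfr, with differences of 0.060 to 0.064 against a median of 0.21.

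Several members shared an order of libraries that did not follow genotype. The 2 highest Gcg KO libraries were Gcg KO 10 and Gcg KO 12 for 7 of the 10 members, the exceptions being Ces3a, Ces3b and Ces4a. WT 6 was the highest WT library for 5 members (Ces1d, Ces1f, Ces1g, Ces2a and Ces2e). Gcg KO 11 was the lowest of its group for Ces1d, Ces1e, Ces1f, Ces2a and Ces2e, and the highest for Ces3a and Ces3b. Gcg KO 11 had the lowest first principal component of its group, -12.9, and Gcg KO 10 and Gcg KO 12 the highest, 28.3 and 28.8. The part of that component in these values was not tested. How many of all tested genes have these orders of libraries was not counted, so the orders are not shown to be particular to the members.

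**Figure D5:**
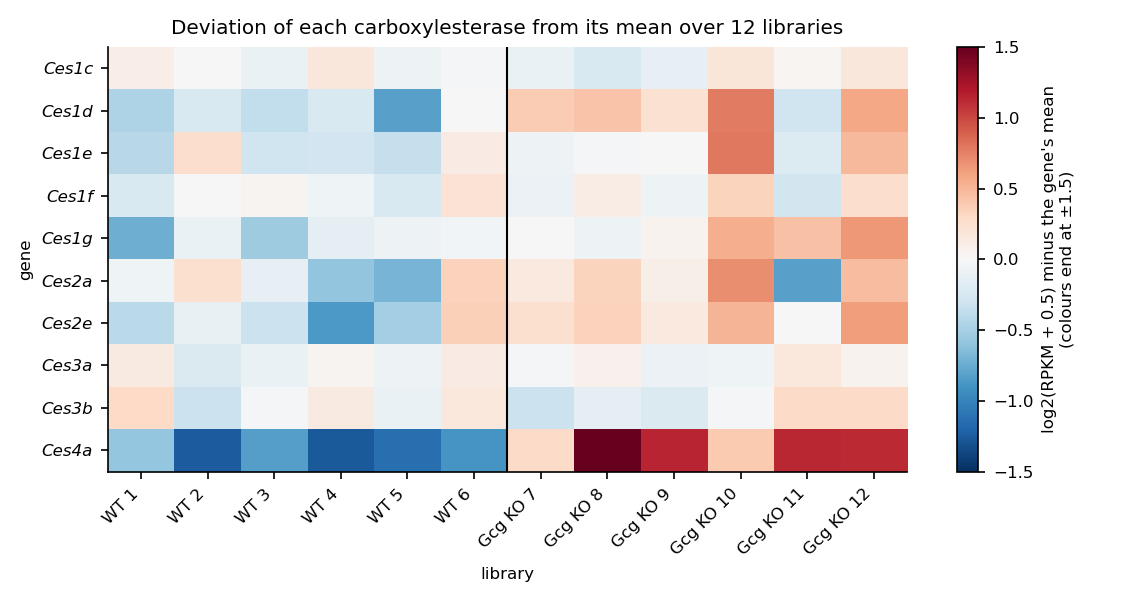
Deviation of log2(RPKM + 0.5) of each member (rows) from its own mean, in each library (columns), blue below and red above; colours end at 1.5 in both directions. Ces4a changes from blue to red at the genotype border, Ces1c, Ces3a and Ces3b stay pale, and the Gcg KO 10 and Gcg KO 12 columns are red for Ces1d to Ces2e.

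Of the other 9 carboxylesterase genes in the table, 4 passed the filter, and 1 of them passed the threshold, upwards. Of all tested genes 1.95% passed upwards. Without adjustment 2 of the 4 had a limma p under 0.05, beside 1783 of 11347 over all tested genes. Ces2g rose from 12.8 ± 1.39 to 19.1 ± 2.39 RPKM (SD, n = 6 each), with WT values of 10.97 to 14.98 and Gcg KO values of 15.9 to 22.2 that did not overlap. Its log2 fold change was 0.56 ± 0.092 (SE, adjusted p = 0.0032), and it passed in all 21 alternatives. Ces2g shared 3.95% of its 50-base windows with other genes. Ces1b, whose closest copy is Ces1c (90.8% coding identity), had 28.1 ± 2.16 and 25.4 ± 6.87 RPKM, a log2 fold change of -0.18 (adjusted p = 0.620). Without WT 6, Gcg KO 10 and Gcg KO 12 that of Ces1b was -0.41 (adjusted p = 0.0761). Ces2c had 54.4 ± 9.75 and 58.0 ± 14.8 RPKM, a log2 fold change of 0.068 (adjusted p = 0.917), or 0.24 without the 3 libraries (adjusted p = 0.555).

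Ces2b, Ces2c and the pseudogene Ces2d-ps share sequence with each other and with further genes to unlike degrees. How reads were divided is therefore uncertain. Ces2d-ps shared 76.9% of its 50-base windows with other genes, most often with Gm8798 (852 of 1607 windows). Ces2c shared 42.2%, most of them with Ces2d-ps. Ces2b shared fewer, 9.56% at 50 bases and 1.41% at 75 bases. At 50 bases its matches fell in 73 other genes, most often Ces2c (99 of 321 shared windows). The mean of Ces2b was 0.984 ± 0.573 RPKM over the WT and 2.49 ± 0.990 over the Gcg KO libraries, a log2 fold change of 1.03 ± 0.33 (SE, adjusted p = 0.114). It passed when Gcg KO 10 alone was left out (1.26, adjusted p = 0.0284), the only one of its 20 alternatives in which it did. Its lowest values in the groups, 0.0992 RPKM in WT 2 and 0.744 in Gcg KO 10, fell in libraries where Ces2d-ps had 0.846 and 0.850 RPKM. Ces2d-ps was highest in Gcg KO 8, at 0.865 RPKM, where Ces2b had 2.83 RPKM, above every WT library. In 4 libraries Ces2d-ps held a value above 0 but under 1e-06, and 989 such values in 408 genes occur in the table, which whole-read counting would not give. The sum of these 3 genes was 55.6 ± 9.71 RPKM in WT and 60.9 ± 15.2 in Gcg KO. Most of that sum was Ces2c, so it says little about Ces2b, and it leaves out the further genes that share their sequence. Ces1a, Ces2f and Ces2h were at most 0.364, 0.0453 and 0.668 RPKM in any library, and Ces5a was listed at 0 throughout.

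RefSeq promoter sequences (GRCm38.p6, 250 bases before to 50 after the annotated start) were found for 7 of the 10 members. The entry of Ces4a is printed because this member rose most, and those of Ces1c and Ces1g to show a motif that recurs in the first array. Capitals mark the motif matches.
Ces4a, chr8:105131550-105131849, plus strand: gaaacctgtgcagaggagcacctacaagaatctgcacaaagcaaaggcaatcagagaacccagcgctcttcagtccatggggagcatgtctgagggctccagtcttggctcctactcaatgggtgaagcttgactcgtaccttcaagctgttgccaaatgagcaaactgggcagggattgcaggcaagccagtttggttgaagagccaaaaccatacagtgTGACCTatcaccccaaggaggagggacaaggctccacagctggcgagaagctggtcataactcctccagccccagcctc
Ces1c, chr8:93131234-93131533, minus strand: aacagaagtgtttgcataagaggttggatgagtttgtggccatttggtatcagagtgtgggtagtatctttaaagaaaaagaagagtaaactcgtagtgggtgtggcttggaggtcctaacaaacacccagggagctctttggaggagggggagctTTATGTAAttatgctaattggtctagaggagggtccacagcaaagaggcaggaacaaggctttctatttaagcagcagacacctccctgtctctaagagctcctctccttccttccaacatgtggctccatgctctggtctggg
Ces1g, chr8:93337160-93337459, minus strand: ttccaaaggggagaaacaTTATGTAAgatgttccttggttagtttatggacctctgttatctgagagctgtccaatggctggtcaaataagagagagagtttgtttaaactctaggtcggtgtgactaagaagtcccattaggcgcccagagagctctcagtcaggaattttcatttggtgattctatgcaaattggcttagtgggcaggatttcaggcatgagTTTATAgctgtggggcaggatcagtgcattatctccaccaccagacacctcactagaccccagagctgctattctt
Each promoter was searched on both strands for 6 motifs, and no matches in these genes overlapped. They were the TATA box TATAAA, the cAMP response element TGACGTCA, the HNF4 alpha site CAAAGTCCA, the HNF1 core GTTAAT, the nuclear receptor core AGGTCA, and the D-box TTATGTAA bound by PAR bZIP and C/EBP factors. The D-box was added to the search after some of these sequences had been seen. It was present in 5 of 6 Ces1 genes with an entry (Ces1a, Ces1b, Ces1c, Ces1e and Ces1g) and in 0 of 9 Ces2 to Ces5 genes. Of all 27025 genes with an entry, 299 hold it, and 0.938% of all 32851 promoters do. The Ces1 genes are duplicated neighbours, so the 5 are not separate occurrences to set against that rate. In Ces1c the D-box lies at -94 to -87 and in Ces1g at -232 to -225 from the annotated start. Ces1b and Ces1c, which share an identical promoter run of 58 bases, had log2 fold changes of -0.18 and -0.024, and the members Ces1e and Ces1g, which also hold the motif, had 0.32 and 0.54. The capitals in Ces4a are the nuclear receptor core, read on the strand opposite to the printed one, at -29 to -24, a motif that 16.3% of promoters hold, and those at -26 to -21 in Ces1g the letters of a TATA box, also on the opposite strand and so antisense to the gene, held by 13.6%. The full cAMP response element was found in 0 of 16 carboxylesterase promoters and in 1.79% of all, which says only that these letters are not in these windows.

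Other hydrolases of the liver, most of them ester hydrolases, were listed beside the family. The list also holds the epoxide hydrolases Ephx1 and Ephx2 and the glycosidase gene Gusb. Of 25 measured, 2 rose, 0 fell and 23 did not pass, with a median log2 fold change of 0.059. Of all tested genes 1.95% rose and 1.92% fell. Without adjustment 9 of the 25 had a limma p under 0.05, beside 1783 of 11347 over all tested genes. This list and those below were drawn up with earlier results of these data known, so their counts only describe them. Ddhd2, a lipase of triacylglycerol and phospholipid, rose from 3.82 ± 0.370 to 5.68 ± 1.08 RPKM (adjusted p = 0.0272), and Nceh1, a neutral cholesterol ester hydrolase, from 5.01 ± 0.871 to 7.21 ± 1.20 RPKM (adjusted p = 0.0424). Their log2 fold changes were 0.50 and 0.49, and 0.51 and 0.47 without WT 6, Gcg KO 10 and Gcg KO 12, where neither passed (adjusted p = 0.1003 and 0.0725). Ddhd2 lost its call in 10 and Nceh1 in 12 of 21 alternatives. Aadac, an abundant hydrolase of the endoplasmic reticulum, had 283 ± 25.7 and 269 ± 16.3 RPKM (adjusted p = 0.701).

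VLDL assembly, which uses the fatty acids that Ces1d releases, had 12 measured genes, of which 2 rose, 0 fell and 10 did not pass (median 0.039). Of all tested genes 1.95% rose. Without adjustment 5 of the 12 had a limma p under 0.05, beside 1783 of 11347 over all tested genes. Mttp, which loads lipid onto apolipoprotein B, rose from 85.8 ± 5.19 to 111 ± 5.18 RPKM (log2 fold change 0.38 ± 0.057 SE, adjusted p = 0.0017), with no overlap between the groups, and passed in all 21 alternatives. Sar1b, a GTPase of the vesicles that carry lipoproteins out of the endoplasmic reticulum, rose from 92.3 ± 8.78 to 123 ± 13.3 RPKM (adjusted p = 0.0133), and in 1 of 21 alternatives, without WT 6, Gcg KO 10 and Gcg KO 12, lost its call (log2 fold change 0.41 with and 0.39 without them, adjusted p = 0.0965). Apob itself had 725 ± 58.3 and 770 ± 64.6 RPKM (adjusted p = 0.660).

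Transcription factors and nuclear receptors that control drug metabolism genes had 16 measured members, and 0 passed in limma in either direction (4 at an unadjusted p under 0.05, beside 1783 of 11347 over all tested genes, median -0.033). Nr1i3, the receptor CAR, had 40.4 ± 7.26 and 49.0 ± 8.17 RPKM (adjusted p = 0.337), and Nr1i2, the receptor PXR, 27.4 ± 3.56 and 26.0 ± 6.15 RPKM (adjusted p = 0.827). Among 19 measured inducible drug metabolism genes 0 rose, 1 fell and 18 did not pass (median -0.080). Of all tested genes 1.92% fell. Without adjustment 2 of the 19 had a limma p under 0.05. The gene that fell was Cyp1a2, a P450 of the pericentral zone, from 389 ± 77.2 to 278 ± 40.0 RPKM (adjusted p = 0.0495), and it lost its call in 15 of 21 alternatives. Cyp3a11, a main target of PXR, had 2171 ± 1429 and 2906 ± 1209 RPKM (adjusted p = 0.679).

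Hepatocyte markers were abundant, as the tissue label has it. Alb, Apoa1, Ttr, Cyp2e1 and Serpina1c summed to 43496 to 57775 RPKM in WT and 43486 to 53241 in Gcg KO. Of these 5, 0 passed in limma in either direction (0 also unadjusted). Of all tested genes 3.87% passed, 1.95% upwards and 1.92% downwards, and 1783 of 11347 had an unadjusted p under 0.05. Beside those shares, counts of genes passing in lists of 5 say little. Carboxylesterases are also made by adipocytes and gut, so markers of those cells were read in the same libraries. The 5 adipocyte markers summed to 0.0862 to 0.882 RPKM in WT and 2.45 to 28.0 in Gcg KO. That rise was Cfd, adipsin, alone (0.263 ± 0.218 to 12.1 ± 10.4 RPKM, adjusted p = 7.9e-04), while Adipoq was at most 0.138 RPKM, Plin1 at most 0.0458 and Lep at 0 in every library. The 5 cholangiocyte markers summed to 14.5 to 27.8 RPKM in WT and 35.2 to 249 in Gcg KO, mostly through Spp1. Spp1 rose from 17.8 ± 4.75 to 89.0 ± 79.4 RPKM (SD, limma adjusted p = 0.0112). Its groups did not overlap, which 3.09% of all tested genes showed. It was the 1 cholangiocyte marker that passed, of 3 tested. Sox9 had means of 1.23 RPKM in WT and 1.85 in Gcg KO (limma adjusted p = 0.130). Krt19 was at most 1.43 RPKM and Epcam at most 0.511. Enterocyte markers summed to 32.8 to 52.4 RPKM in WT and 37.2 to 48.6 in Gcg KO, nearly all of it Fabp2, and 2 of the 5 were at 0 in every library. Other markers also differed. Lyve1, of liver endothelium, rose from 3.01 to 6.06 RPKM (adjusted p = 0.0125), and its list of 5, of which 1 passed, summed to 60.2 to 81.9 RPKM in WT and 65.4 to 102 in Gcg KO. Rgs5, from the stellate cell list, rose from 6.44 to 8.42 RPKM (adjusted p = 0.0036), with sums of 15.9 to 19.8 and 17.3 to 22.5 RPKM. All 5 markers of each of these lists had positive fold changes, as did 6161 of all 11347 tested genes. The smallest log2 fold changes were 0.084 for Kdr in the endothelial list and 0.0070 for Des in the stellate cell list. Cela1, from the pancreatic acinar list, fell from 21.3 to 14.1 RPKM (adjusted p = 0.0179), while Prss2, Cpa1 and Pnlip were at 0 in every library. The 5 Kupffer cell markers summed to 51.8 to 95.1 RPKM in WT and 62.8 to 98.3 in Gcg KO, and 0 passed in limma (0 also unadjusted). The part of these markers in the members' values was not tested. In bulk liver a change in the cells present and a change in RNA per cell cannot be told apart.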

How the data were processed

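Polyadenylated, strand-specific RNA-seq libraries of fed mouse liver, 6 WT and 6 Gcg KO, were used. The authors deposited 1 table of RPKM per gene with Entrez identifiers; the unit comes from the table's name and its values, which are not whole and whose column sums (592947 to 624701) differ. CASAVA 1.8.2, FastQC and GRCm38 are named in the submitters' processing notes; the aligner, counter, annotation and read length were not given in the sources used here. Each column matched 1 sample by its description.

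Genes with a mean of at least 0.5 RPKM over 12 libraries (11347) were tested on log2(RPKM + 0.5) with limma 3.58.1 (R 4.3.3), mean-variance trend, no covariate, two-sided, Benjamini-Hochberg over all tested genes, threshold 0.05. The fit was tested on simulated data. Fold changes on this scale understate changes of low genes. Depth is an estimate, so no count test was run. Named genes were the members, the rest of the family, up to 4 past-threshold genes with the smallest p and up to 2 others per pathway list, and the 5 nearest profiles to the members with the smallest and largest p (Gm and Rik symbols left out; LOC symbols were kept). Members, lists, the 3 libraries left out together and the alternatives were chosen with earlier results of these data known. Gene positions are those of RefSeq (GRCm38.p6). Sequence matches took windows from 1 GENCODE M21 transcript per family gene, the one with the longest coding sequence. They were searched in all M21 transcripts of other genes, on the same strand. The coding sequences of the chosen transcripts were aligned with mafft.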

Additional observations from a re-analysis of the deposited data

Results flagged for a closer look

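In each group of 6 libraries, the gap of the highest or lowest library to its neighbour was compared with the group's range, for the carboxylesterase genes and the pathway genes past the threshold. Groups with no library at 0.5 RPKM or more were left out, among them both groups of Ces2f. Of 41 gene and group pairs, 3 exceeded the 95% critical value of 0.625, and chance gives about 1 in 20. No member was among them. Ces2d-ps had 0.846 RPKM in WT 2, where the other WT libraries were at 0.315 or lower. Mttp had 75.5 RPKM in WT 4 and 86.8 to 90.0 in the other WT libraries. Sar1b had 109 RPKM in WT 2 and 84.1 to 92.5 in the other WT libraries.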

How the results depend on the processing

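The counts and the log2 fold changes of the members, the 4 tested family genes and the pathway genes past the threshold were recomputed under 21 alternatives (20 for Ces2b). The sum of the Ces1 members was recomputed with libraries left out; ratios, other sums, markers and genes named as not passing were not recomputed. Ces4a, Ces2g and Mttp passed in every one, and 0 members fell in any. The number of members that rose was 1 with no filter on low values, 4 under quantile normalization and 1 to 3 when 1 library was left out. Ces1d did not pass with no filter (log2 fold change 0.70, adjusted p = 0.0694) or without WT 6, Gcg KO 10 and Gcg KO 12 (0.60, adjusted p = 0.0928), and had 0.61 to 0.83 with 1 library left out. Ces1g passed under quantile normalization (0.59), and Ces2b without Gcg KO 10 (1.26). Ces2e passed under quantile normalization (0.66), median centring (0.60) and without the 3 libraries (0.63), and had 0.51 to 0.75 with 1 library left out (passing without WT 6). Differences near 0 changed sign: Ces1c was 0.023 and Ces3b 0.029 under quantile normalization. With 1 library left out Ces1c ranged from -0.063 to 0.021 (0.0082 without WT 4), and was -0.13 without the 3 libraries; leaving out 1 library gave -0.010 to 0.061 for Ces3a and -0.11 to 0.015 for Ces3b, and Ces2c reached -0.0085 (0.068 with all libraries). Over all tested genes, 128 rose without the 3 libraries; with 1 library left out 136 to 261 rose and 141 to 210 fell. Of the pathway list genes, 2 rose with no filter and 1 without the 3 libraries, and 2 to 6 rose and 0 to 2 fell with 1 library left out; 0 fell with no filter, quantile normalization, median centring, limma without trend or without the 3 libraries. The cause of these changes was not tested. Fewer libraries and more genes tested were part of the alternatives' construction. The sum of the Ces1 members differed by 0.17 on the log2 scale, and by 0.064 to 0.20 with libraries left out. No paired analysis was possible because the groups share no replicate numbers. Ces2b in WT 2 was estimated at 5 reads, although that library had the highest depth estimate (14900000 reads). In the other WT libraries Ces2b was estimated at 29 to 83 reads. The cause of the low value in WT 2 was not tested.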
